A study of Mus musculus with 12 samples.

Results

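The active-mark chromatin map of the Kmt2d mutant mouse melanoma line 493 consists of 3 deposited peak lists, for H3K4me1, H3K4me3 and H3K27ac, each called against an input of the same line. Its members are the peaks of these lists on the 19 autosomes and X, 40380 of the 134015 peaks in all 8 lists of the series. The marks were set against each other within this line, first within 1 kb of a gene end (either end of a protein-coding or lncRNA gene model) and then elsewhere. The series is a chromatin immunoprecipitation sequencing (ChIP-seq) study of 2 mouse melanoma lines, Kmt2d Mutant 493 and Kmt2d WT 971, with 1 library per line and mark. Both lines were cultured in DMEM/F12 with serum and antibiotics, with no treatment named in the labels. Line 493 has separate inputs, labelled for AEF and for C. By the letters in the list names, the first belongs to H3K4me1 and H3K4me3 and the other to H3K27ac. The H3K27ac list thus differs from the methylation lists in input as well as in mark. The labels say neither which Kmt2d allele line 493 carries nor how it arose, and each genotype stands on 1 line, so genotype, line and library cannot be told apart. With 1 library per mark there is no replicate check and no test between samples, and the exact binomial (Clopper-Pearson) 95% intervals given in parentheses cover counting error only.

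KMT2D is a histone methyltransferase that places single methyl groups on lysine 4 of histone H3, mainly at enhancers, where the product H3K4me1 is found with or without H3K27ac, the acetylation that marks active enhancers and promoters. H3K4me3 sits around the starts of active and poised genes and is placed largely by other methyltransferases of the same family. H3K4me1 is known to flank H3K4me3 at promoters rather than to cover their centres.

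The promoters of 6 genes are printed as examples of the main combinations of marks, from 250 bases before the start to 50 after it. For each combination below, the first gene of the ranking by the authors' peak strength that had a symbol other than a predicted-gene number, a RefSeq promoter entry and every peak within 1 kb of its start was taken. Tyr, the tyrosinase gene of pigment synthesis, was added as a gene with none of the 3 marks, after its values were seen. Sequences are from RefSeq on GRCm38.p6, the assembly behind mm10, read 5′ to 3′ on the strand of the gene, with CpG dinucleotides in capitals. Ess2 (chr16:17911299-17911598, minus strand) carried all 3 marks, Arid1a (chr4:133756720-133757019, minus strand) H3K4me1 and H3K4me3, Phrf1 (chr7:141228538-141228837, plus strand) H3K4me3 and H3K27ac, Tmem19 (chr10:115362452-115362751, minus strand) H3K4me3 alone, and Itih1 (chr14:30943240-30943539, minus strand) H3K27ac alone. Tyr is at chr7:87493463-87493762 on the minus strand.
Ess2: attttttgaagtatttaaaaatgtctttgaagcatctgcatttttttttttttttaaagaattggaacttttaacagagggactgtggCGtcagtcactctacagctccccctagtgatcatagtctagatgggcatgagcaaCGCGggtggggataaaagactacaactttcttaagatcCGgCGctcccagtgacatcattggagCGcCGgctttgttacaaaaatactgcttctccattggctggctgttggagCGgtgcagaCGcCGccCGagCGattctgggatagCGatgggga
Arid1a: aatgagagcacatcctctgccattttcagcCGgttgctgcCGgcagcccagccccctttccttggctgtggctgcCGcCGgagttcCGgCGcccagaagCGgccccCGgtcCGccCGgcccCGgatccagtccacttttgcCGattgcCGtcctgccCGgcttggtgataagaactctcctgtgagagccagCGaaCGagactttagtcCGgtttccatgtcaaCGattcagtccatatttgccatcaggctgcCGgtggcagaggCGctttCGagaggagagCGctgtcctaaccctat
Phrf1: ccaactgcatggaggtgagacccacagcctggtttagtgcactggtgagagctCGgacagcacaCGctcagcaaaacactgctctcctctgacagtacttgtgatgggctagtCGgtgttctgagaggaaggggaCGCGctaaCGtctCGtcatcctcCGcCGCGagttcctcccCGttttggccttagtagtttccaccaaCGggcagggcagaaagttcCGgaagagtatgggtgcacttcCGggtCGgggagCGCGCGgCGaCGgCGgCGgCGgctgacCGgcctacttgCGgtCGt
Tmem19: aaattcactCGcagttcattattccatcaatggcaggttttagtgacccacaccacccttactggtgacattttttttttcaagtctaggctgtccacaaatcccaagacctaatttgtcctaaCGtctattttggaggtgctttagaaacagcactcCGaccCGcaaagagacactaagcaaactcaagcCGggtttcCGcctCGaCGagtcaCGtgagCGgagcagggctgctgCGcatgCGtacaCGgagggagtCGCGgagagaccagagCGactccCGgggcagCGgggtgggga
Itih1: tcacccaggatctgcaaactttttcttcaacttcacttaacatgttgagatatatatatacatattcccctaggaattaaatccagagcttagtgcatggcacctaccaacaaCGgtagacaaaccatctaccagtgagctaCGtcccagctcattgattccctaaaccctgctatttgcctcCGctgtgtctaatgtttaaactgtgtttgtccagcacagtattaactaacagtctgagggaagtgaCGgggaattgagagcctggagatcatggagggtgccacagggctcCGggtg
Tyr: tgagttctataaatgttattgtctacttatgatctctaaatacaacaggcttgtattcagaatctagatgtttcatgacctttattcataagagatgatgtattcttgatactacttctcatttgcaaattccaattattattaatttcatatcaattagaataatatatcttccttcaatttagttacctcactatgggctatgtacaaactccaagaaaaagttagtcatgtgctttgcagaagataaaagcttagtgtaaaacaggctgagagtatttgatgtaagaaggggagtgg

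In these 300-base windows the promoter of Phrf1 held 26 CpG, that of Arid1a 22, that of Tmem19 18, that of Ess2 13 and that of Itih1 5, and that of Tyr held 0. The genes with H3K4me3 thus had more CpG than Itih1 and Tyr, which had no H3K4me3. At Ess2, which encodes a nuclear splicing-associated protein, the H3K4me3 domain ran from position -340 to 1525 relative to the start (in bp, negative upstream), the H3K27ac peak lay 299 to 387 bp downstream, and the H3K4me1 peak lay 732 to 1448 bp downstream. At Arid1a, a subunit of the SWI/SNF chromatin remodeller, the H3K4me3 domain covered the start and the H3K4me1 peak lay 591 to 1004 bp downstream. At Phrf1, a PHD and RING finger protein, the H3K27ac peak ran from position -214 to -68, inside the H3K4me3 domain and over the sequence shown. The Itih1 peak of H3K27ac ran from position -1075 to -822. Like the H3K27ac peak of Ess2 and the H3K4me1 peaks of Ess2 and Arid1a, it lay outside the sequence shown.

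The 3 lists differed in length and in peak width. The H3K4me1 list held 3649 peaks with a median width of 352 bp (quartiles 259 and 493 bp) covering 1.51 Mb. The H3K4me3 list held 17982 domains with a median width of 1976.5 bp covering 40.01 Mb, and the H3K27ac list 18749 peaks with a median width of 107 bp covering 2.39 Mb. Of the H3K4me3 domains, 69.0% lay within 1 kb of a gene end, against 26.97% of the H3K27ac peaks and 15.9% of the H3K4me1 peaks. Windows of 1 kb around gene ends made up 4.68% of the chromosome length, so all 3 shares were above the share of sequence. Overlap shares between lists of such unequal length depend on both lists, and each is given from the side of the list named first.

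Merging all peaks that touched gave 31706 regions, of which 13408 reached within 1 kb of a gene end and 18298 did not. At gene ends, H3K4me3 alone made up 7528 regions (56.1%), H3K4me3 with H3K27ac 3581 (26.7%), and H3K27ac alone 865 (6.45%). H3K4me1 came with H3K4me3 in 676 regions there and with both other marks in 623, whereas 115 held H3K4me1 alone and 20 held H3K4me1 and H3K27ac without H3K4me3. Elsewhere, H3K27ac alone was the most frequent class with 11041 regions (60.3%), ahead of H3K4me3 alone with 4195 (22.9%) and H3K4me1 alone with 1424 (7.78%). The classical active enhancer pair, H3K4me1 with H3K27ac and no H3K4me3, was found in 272 regions elsewhere (1.49%). Of the 752 regions with all 3 marks, 82.8% (79.96% to 85.5%) lay at gene ends.

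**Figure D1:**
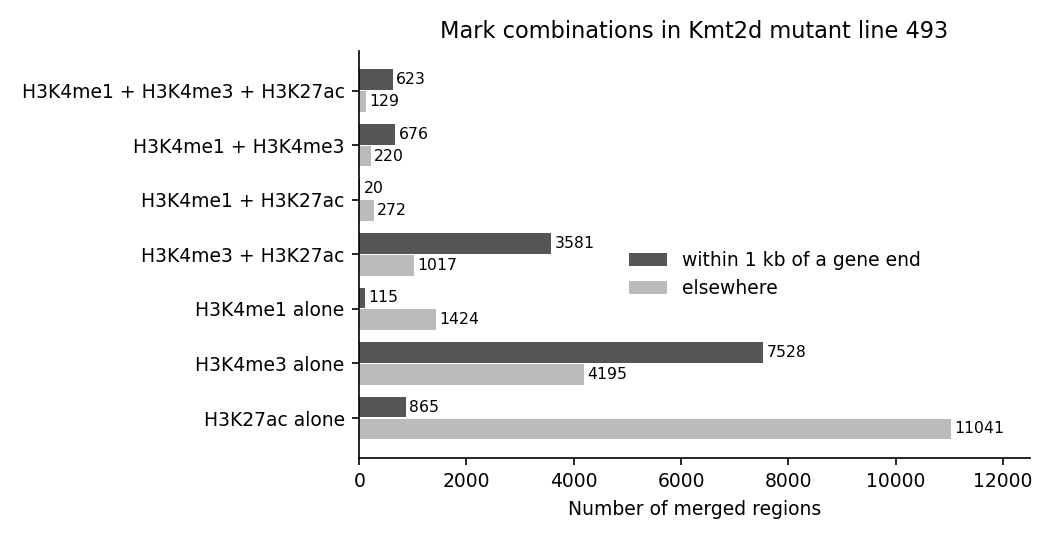
Number of merged regions of mutant line 493 (x axis) for each combination of the 3 marks (y axis), within 1 kb of a gene end (dark bars) and elsewhere (light bars), 1 library per mark. Regions with H3K4me3 lay mostly at gene ends, and regions of H3K27ac alone (865 and 11041) or H3K4me1 alone (115 and 1424) mostly elsewhere.

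More H3K4me1 peaks of line 493 overlapped an H3K4me3 domain than an H3K27ac peak. The H3K4me3 domains covered 40.01 Mb, however, and the H3K27ac peaks 2.39 Mb. The part of this coverage in the overlap shares was not tested. Of the 3649 H3K4me1 peaks, 49.8% (48.2% to 51.4%) overlapped an H3K4me3 domain by at least 1 bp, 10.8% (9.81% to 11.8%) overlapped an H3K27ac peak, and 42.2% overlapped neither. At gene ends 76.7% (73.0% to 80.1%) of the 579 H3K4me1 peaks overlapped H3K4me3. Elsewhere 44.7% (43.0% to 46.5%) of 3070 did, and most of these, 32.4% of the 3070, were on H3K4me3 domains that themselves reached a gene end, while 12.4% were on domains that did not. In lists cut to equal length by the authors' strength the overlap with H3K4me3 was 25.7%, and with H3K27ac 4.19%. Within 1 kb, 31.4% of H3K4me1 peaks had an H3K27ac peak.

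The same overlap was lower in the Kmt2d WT line 971, where 22.9% of the H3K4me1 peaks lay on H3K4me3. Its 2 lists were longer, and with the WT lists cut to the mutant lengths the share was lower still. The difference, mutant minus WT, was 26.9 percentage points with the deposited lists and 31.8 with the cut lists. For H3K4me1 peaks away from gene ends the share on H3K4me3 domains reaching a gene end was 32.4% in line 493 and 5.99% (5.63% to 6.38%) in line 971, and the share on other H3K4me3 domains was 12.4% and 15.5%. With 1 line per genotype these are differences between libraries.

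Inside H3K4me3 domains, H3K4me1 lay towards the edges and H3K27ac towards the centre. The midpoints of 1679 H3K4me1 peaks fell inside a domain. Of these, 81.2% (79.3% to 83.1%) were in the outer 30% of the domain width on either side and 18.8% in the middle 40%. Of 6429 H3K27ac midpoints, 41.7% (40.5% to 42.9%) were in the outer parts and 58.3% in the middle. The median distance to the nearer edge was 525 bp for H3K4me1 and 882 bp for H3K27ac, in domains with median widths of 3304 bp and 2911 bp. In line 971, 72.2% of H3K4me1 midpoints and 42.4% of H3K27ac midpoints were in the outer parts, so the same order held there.

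**Figure D2:**
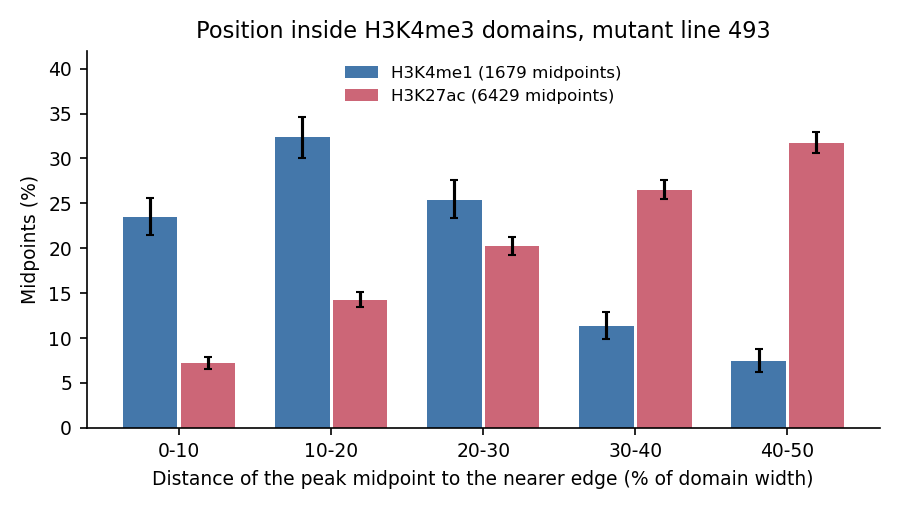
Share of peak midpoints inside H3K4me3 domains of mutant line 493 (y axis, percent of 1679 H3K4me1 and 6429 H3K27ac midpoints) by distance to the nearer domain edge (x axis, percent of domain width). Error bars are exact binomial 95% intervals; H3K4me1 was highest, at 32.3%, from 10 to 20% of the width, and H3K27ac highest, at 31.7%, from 40 to 50%.

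The edge that H3K4me1 occupied was usually the one inside the gene. Starts with strand were available for 17274 protein-coding genes, with 21045 start entries. Relative to the nearest start, 45.6% (43.3% to 48.0%) of the H3K4me1 peaks on H3K4me3 had their midpoint 500 to 2500 bp downstream, 9.77% (8.43% to 11.2%) 500 to 2500 bp upstream and 1.63% within 500 bp. H3K27ac peaks on H3K4me3 differed, with 38.1% within 500 bp of a start, 20.1% downstream and 8.14% upstream in the same ranges. Of 953 starts in H3K4me3 domains that also held H3K4me1, 721 (75.7%; 72.8% to 78.4%) had H3K4me1 downstream only, 189 (19.8%) upstream only, 41 on both sides and 2 over the start itself. The H3K4me3 domain was itself longer on that side: over 7811 starts its median extent was 836 bp upstream and 1682 bp downstream, and 82.4% reached farther downstream. The part of this asymmetry in the H3K4me1 side was not tested.

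Over all start entries, H3K4me3 covered 55.5% at the start itself and was highest, at 55.7%, 100 bp downstream. H3K27ac covered 0.589% at the start, 3.27% at 200 bp downstream and 1.85% at 300 bp upstream, so that its profile had a dip over the start. H3K4me1 covered 0.0570% at the start, rose to 1.58% at 1400 bp downstream and had a lower maximum of 0.580% at 1600 bp upstream. In line 971 H3K4me1 covered 0.276% at the start and its maximum within 5 kb, at 242 of the start entries, lay 2900 bp downstream, and at the 1500 bp downstream position it covered 0.879%, against 1.56% in line 493 in spite of a list of 17373 peaks. At 1500 bp upstream the order was the other way, 0.870% in line 971 and 0.527% in line 493.

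**Figure D3:**
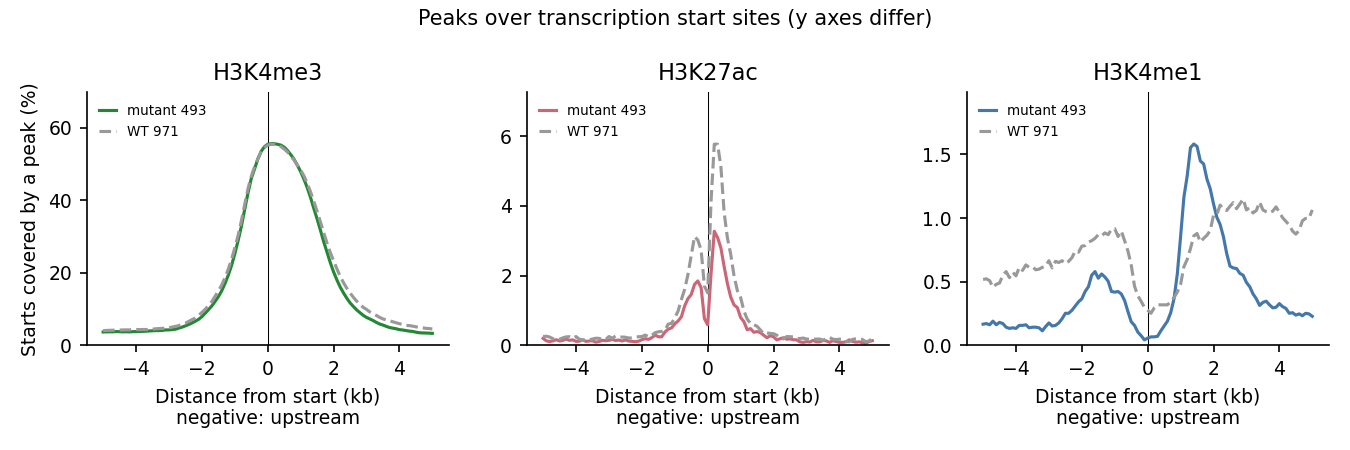
Percent of 21045 start entries covered by a peak (y axis, a different scale in each panel) at each distance from the start (x axis, kb, negative upstream) for the 3 marks, in mutant line 493 (solid) and WT line 971 (dashed), 1 library per line and mark. In line 493 H3K4me1 was highest 1400 bp downstream, at 1.58%, and H3K27ac peaked on both sides of the start.

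Wider H3K4me3 domains carried the other marks more often. H3K27ac overlapped 9.50% (8.58% to 10.5%) of domains under 1 kb, 35.9% of those from 2 to 3 kb and 72.0% (67.0% to 76.7%) of the 347 domains of 6 kb or more. H3K4me1 overlapped 3.42%, 9.26% and 32.9% (27.9% to 38.1%) of the same classes. Per kb of domain, H3K27ac numbered 0.137 peaks in domains under 1 kb, 0.170 in those from 2 to 3 kb and 0.150 in the widest. H3K4me1 numbered 0.0479 peaks per kb in domains under 1 kb, 0.0269 from 1 to 2 kb, 0.0387 from 2 to 3 kb, 0.0533 from 3 to 4 kb, 0.0630 from 4 to 6 kb and 0.0597 in the widest. At gene ends the median domain width was 3.38 kb with and 2.29 kb without H3K4me1, and 2.99 kb with and 2.10 kb without H3K27ac. The authors' score was also higher on domains with a further mark, with medians of 3100 with and 1772 without H3K4me1, but 3223 domains shared the score of 3100, so it does not rank the strongest domains.

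**Figure D4:**
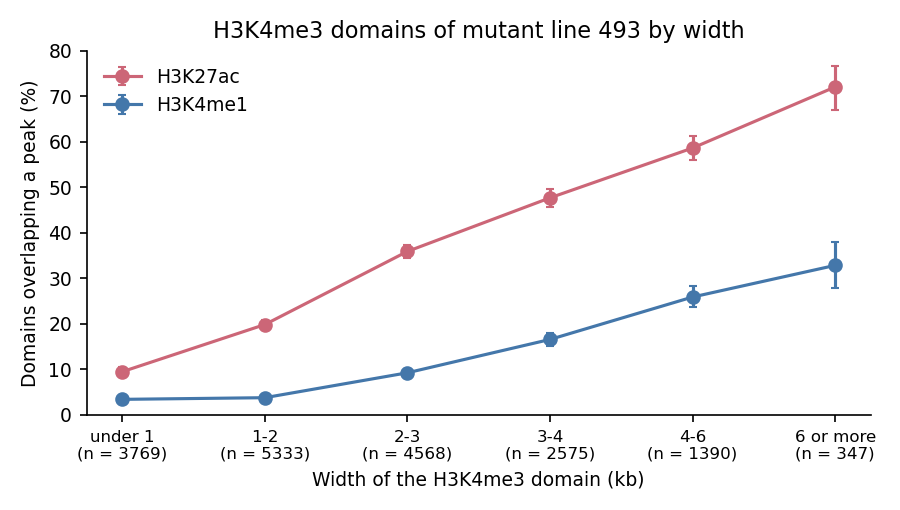
Percent of H3K4me3 domains of mutant line 493 that overlapped an H3K27ac or H3K4me1 peak (y axis) by domain width (x axis, kb, with the number of domains), with exact binomial 95% intervals. H3K27ac rose from 9.50% to 72.0% and H3K4me1 from 3.42% to 32.9%.

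Some H3K27ac peaks overlapped H3K4me3, mostly at gene ends, and a larger part overlapped no called peak of either methylation mark. The H3K27ac peaks were narrow, with a lower quartile of 89 bp. Of 18749 peaks, 34.8% (34.1% to 35.5%) overlapped H3K4me3, with 82.6% (81.5% to 83.6%) of 5056 at gene ends and 17.1% (16.5% to 17.8%) of 13693 elsewhere. Overlap with H3K4me1 was 0.850% at gene ends and 2.71% (2.444% to 2.995%) elsewhere, or 7.20% elsewhere within 1 kb. Elsewhere 80.6% of H3K27ac peaks overlapped neither mark, and 73.9% had neither within 1 kb. In lists of equal length 21.1% of H3K27ac peaks overlapped H3K4me3, 6.30% of those elsewhere overlapped H3K4me1, and 19.3% of H3K4me3 domains at gene ends held H3K27ac. From the side of H3K4me3, 33.9% (33.1% to 34.7%) of 12411 domains at gene ends and 20.6% (19.5% to 21.6%) of 5571 elsewhere held H3K27ac, and 10.5% and 6.41% held H3K4me1. With the more significant 50% of each list the order of the H3K27ac shares turned, to 28.2% (27.2% to 29.2%) at gene ends and 30% (26.9% to 33.2%) elsewhere, with overlapping intervals.

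The strength that the authors gave each H3K27ac peak went with its partners. In 5 equal groups by −log10 p, from weakest to strongest, 25.3%, 29.8%, 32.7%, 38.7% and 47.3% of the peaks overlapped H3K4me3. Away from gene ends the share on H3K4me1 was 1.53% (1.11% to 2.04%) in the weakest group and 6.10% (5.18% to 7.12%) in the strongest. The median fold enrichment of the authors was 5.61 for the 371 H3K27ac peaks elsewhere with H3K4me1 and 5.08 for those without. The 5 groups of H3K4me1 peaks, from weakest to strongest, overlapped H3K4me3 at 47.4%, 49.0%, 50%, 54.0% and 48.6%. They overlapped H3K27ac at 8.63% (6.70% to 10.9%), 10.7%, 10.8%, 10.5% and 13.3% (10.9% to 15.99%).

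At the level of genes, 57.4% of the 21631 protein-coding genes had H3K4me3 within 1 kb of an end (12408 genes), 19.7% had H3K27ac (4258) and 2.29% had H3K4me1 (496). H3K4me3 alone was found at 8093 genes (37.4%), H3K4me3 with H3K27ac at 3835 (17.7%), H3K4me1 with H3K4me3 at 285 (1.32%) and all 3 marks at 195 (0.901%). H3K27ac alone was found at 221 genes (1.02%), H3K4me1 alone at 9 (0.0416%), H3K4me1 with H3K27ac at 7 (0.0324%) and none of the marks at 8986 (41.5%). In line 971 the shares of genes with H3K4me3, H3K27ac and H3K4me1 were 57%, 29.1% and 4.26%. In line 493 H3K27ac was at 32.5% (31.7% to 33.3%) of genes with H3K4me3 and at 2.47% of those without. Conversely 94.6% of genes with H3K27ac and 96.8% of those with H3K4me1 had H3K4me3. The marks of a gene need not share an end: of the 195 genes with all 3, 132 (67.7%; 60.6% to 74.2%) had them at the same end, against 3735 of the 3835 genes with H3K4me3 and H3K27ac. The count of genes with all 3 marks was 798 with gene ends of 2.5 kb, 68 with the more significant 50% of each list and 48 with lists of equal length. That of genes with H3K4me3 and H3K27ac was 2235 and 603 with these shorter lists.

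Among the genes with all 3 marks, Ess2, Sac3d1, Zfp316 and Pfdn5 had the strongest H3K4me1. The −log10 p of the H3K4me1 peak was 9.42 at Ess2 (chromosome 16, 17909900 to 17910616) and 9.16 at Sac3d1, which encodes a centrosome-associated protein (chromosome 19, 6116708 to 6116909). At Zfp316, a zinc finger gene on chromosome 5, the H3K4me1 peak of 217 bp lay upstream of the gene (143270801 to 143271017; −log10 p 9.11) and the H3K27ac peak of 273 bp just outside the start. Pfdn5, a subunit of the prefoldin chaperone, had H3K4me3 (1.85 kb) and an 89 bp H3K27ac peak at its start and an 822 bp H3K4me1 peak beyond its other end, so H3K4me1 stood apart from the other marks. In line 971 Ess2 and Pfdn5 had H3K4me3 with H3K27ac, Sac3d1 had H3K4me3 alone and Zfp316 had H3K4me1 with H3K4me3.

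With H3K4me1 and H3K4me3 but no H3K27ac, Arid1a came first (H3K4me1 of 414 bp, −log10 p 10.7, in an H3K4me3 domain of 2.23 kb). Cdca5, a cohesin regulator also called sororin, and Zfpl1, a Golgi zinc finger protein, are neighbours on chromosome 19 and shared 1 peak of 706 bp (−log10 p 9.79) in 1 domain of 3.46 kb. Ddb1, a DNA damage binding subunit of a ubiquitin ligase, had an H3K4me1 peak of 512 bp upstream of its start. H3K4me1 with H3K27ac and no H3K4me3 at a gene end was rare, at Slit1, Spint4, Gm10277, Tnnt2 and 3 others. At Slit1, an axon guidance ligand, the H3K4me1 peak of 471 bp had a −log10 p of 7.21, and line 971 had the same pair of marks. At Tnnt2, cardiac troponin T, both peaks lay at the downstream end.

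H3K4me3 with H3K27ac was led by Col23a1, a transmembrane collagen, where the H3K27ac peak of 190 bp had a fold enrichment of 11.8 and lay with a 2.87 kb H3K4me3 domain at the downstream end of the gene. Rtcb, the tRNA ligase, had H3K27ac at 12.04-fold in a 2.35 kb domain. Gm51460 and Phrf1 overlap and shared the same 2 peaks, with H3K27ac at 11.7-fold. The strongest genes with H3K27ac alone were Gm32687 (11.3-fold), Gm3776 (10.6-fold), Itih1, an inter-alpha-trypsin inhibitor chain (9.66-fold), and Ap2b1, a clathrin adaptor subunit (8.50-fold). Ap2b1 had none of the 3 marks in line 971.

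Genes with H3K4me1 alone included Omd, osteomodulin (222 bp), and Tgm1, the transglutaminase of the cornified envelope (200 bp). At Tgm1 line 971 also had H3K4me1 alone. H3K4me3 alone, with the highest score of 3233, was found at Ctsb, cathepsin B (4.88 kb), Rhod, a small GTPase (3.95 kb), Tmem19 (3.59 kb) and Calu, calumenin (3.33 kb).

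Kmt2d (chromosome 15, 98831669 to 98874077, minus strand) had H3K4me3 with H3K27ac and no H3K4me1 at a gene end in line 493. Its H3K4me3 domain of 6.45 kb lay near its start, and the H3K27ac peak of 195 bp (7.63-fold; 98830919 to 98831113) lay at its other end. The genotype label could not be checked from peak lists.

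Away from gene ends, regions are named by the nearest protein-coding gene, with the distance to its nearer end. The strongest H3K4me1 peak of the list overlapped an H3K4me3 domain 12.5 kb from Fcgr3, an Fc receptor gene (chromosome 1, 171078401 to 171078887; −log10 p 14.6). H3K4me1 also met H3K4me3 in a region of 1.93 kb at Ampd3, an AMP deaminase (5.24 kb away; 11.98), and in one of 4.68 kb at Sbno2, a transcriptional coregulator (3.06 kb away; 10.1). All 3 marks were present in a 4.39 kb region near Dazap1, an RNA-binding protein gene on chromosome 10, in a 1.36 kb region 3.25 kb from Eef1g, a subunit of elongation factor 1, and in a 1.35 kb region 8.07 kb from Zcchc13 on X. H3K4me1 with H3K27ac was strongest near Txn1, thioredoxin (1.25 kb away; −log10 p of H3K4me1 9.001), Parp8 (85.6 kb away; 8.74) and Ywhaz, a 14-3-3 protein (52.4 kb away; 8.63). H3K4me1 alone was strongest near Grpel1, a mitochondrial co-chaperone (3.01 kb away; −log10 p 11.0027), Ino80c, a remodeller subunit (5.43 kb away; 10.6), and Syt6, a synaptotagmin (26.5 kb away; 9.69). Of these 12 regions, those at Zcchc13, Txn1 and Parp8 had no H3K4me1 peak in line 971.

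H3K27ac alone elsewhere was strongest in a 151 bp peak 40.7 kb from Hsf2bp (−log10 p 24.8), the highest value of the H3K27ac list. It was followed by peaks near Gm46240 (28.8 kb away; 19.2) and Kmt5b, an H4K20 methyltransferase (7.16 kb away; 18.5). With H3K4me3 it was strongest near Prpsap1 (3.49 kb away; 20.6), Asah2, neutral ceramidase (3.89 kb away; 19.8), and Arhgef7 (29.1 kb away; 17.8). H3K4me3 alone elsewhere had its highest scores near Ttc28, Clmp and Pom121, in domains of 2.96, 3.64 and 2.92 kb. The median distance to the nearest protein-coding gene end was 8.90 kb for regions with all 3 marks and 35.7 kb for H3K4me1 with H3K27ac. It was 27.4 kb for H3K4me1 alone, 33.4 kb for H3K27ac alone and 13.5 kb for H3K4me3 alone.

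Of 55 cytosolic ribosomal protein genes, 55 had H3K4me3, 32 (58.2%) H3K27ac and 9 (16.4%) H3K4me1, beside 57.4%, 19.7% and 2.29% of all protein-coding genes. Their median H3K4me3 width was 4.10 kb, beside 2.65 kb over all genes with the mark. Rpl8, Rpl24, Rpl28 and Rpl30 were among those with all 3 marks, and Rpl12, Rpl17, Rpl32 and Rplp1 had H3K4me1 with H3K4me3. At Rpl8 the H3K4me1 peak was 521 bp wide (−log10 p 6.06) in a 3.15 kb H3K4me3 domain, and the H3K27ac peak was 144 bp wide (6.20-fold). Rpl24 had an H3K27ac peak of 317 bp (8.01-fold), and its H3K4me1 peak of 200 bp lay outside its H3K4me3 domain. In line 971, 5 of the 55 had H3K4me1 and 44 had H3K27ac. The part of domain width in these counts was not tested.

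Of 30 genes of the TCA cycle and respiratory chain, 26 (86.7%) had H3K4me3, 13 (43.3%) H3K27ac and 3 H3K4me1, beside 57.4%, 19.7% and 2.29% of all protein-coding genes. Mdh2, malate dehydrogenase, had all 3 marks with an H3K4me1 peak of 263 bp (−log10 p 5.61). Sdhc, a subunit of succinate dehydrogenase, had H3K4me1 with H3K4me3. Of 17 glycolysis genes, 14 (82.4%) had H3K4me3, 3 (17.6%) H3K27ac, near the share of all genes, and 0 H3K4me1. Gpi1, glucose phosphate isomerase, had H3K4me3 with H3K27ac, as had Aldoa and Tpi1, glycolytic enzymes. Slc2a1, the glucose transporter GLUT1, and Hk2, a hexokinase, had H3K4me3 alone, and Hk1 had no mark. The median H3K4me3 widths were 2.89 kb and 3.62 kb, beside 2.65 kb over all genes.

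Of 15 MAPK targets and feedback regulators, 15 had H3K4me3, 9 (60%) had H3K27ac and 1 had H3K4me1, beside 57.4%, 19.7% and 2.29% of all protein-coding genes. Their median H3K4me3 width was 7.23 kb, beside 2.65 kb over all genes. H3K4me1 was at Spry1, a feedback inhibitor of receptor kinases, with an H3K4me1 peak of 330 bp in a 5.29 kb domain. Of 9 AP-1 genes, 8 had H3K4me3, 2 (22.2%) H3K27ac (Jun and Fosl1), near the share of all genes, and 1 H3K4me1. This was Junb, with a peak of 289 bp in a 4.48 kb domain. The strongest gene-end H3K27ac peak of Fosl1 lay at the end away from its H3K4me3 domain. Of 18 cyclin, CDK and CDK inhibitor genes, 15 had H3K4me3, 4 (22.2%) H3K27ac (Ccnd1, Cdkn1a, Cdkn2c and E2f3), again near that share, and 1 H3K4me1, at Cdkn2d, the inhibitor p19-INK4d, with a peak of 447 bp in a 6.15 kb domain. The H3K4me1 peaks named here, at Spry1, Junb and Cdkn2d, were each within 1 kb of the downstream gene end and not of the start.

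The melanocyte list concerns the labelled cell type, but its shares, near or below those of all genes, cannot check that label. Of 20 lineage and pigment genes, 11 (55.0%) had H3K4me3, beside 57.4% of all protein-coding genes, 3 (15%) had H3K27ac, beside 19.7%, and 0 had H3K4me1, beside 2.29%. These counts take either gene end. The strongest gene-end H3K4me3 domain of Mc1r lay at the downstream end of the gene. That of Mlana (29707770 to 29708681) lay at the gene end at 29708447. Among the transcription factors of the lineage, Sox10 had a 6.66 kb H3K4me3 domain, Pax3 one of 3.52 kb and Mitf one of 2.34 kb. Each was without the other marks. The 9 genes of the list with none of the marks were Tyr, Tyrp1, Dct, Slc24a5, Oca2, Kit, Ednrb, Gpr143 and Trpm1. Sox10 had none of the 3 marks in line 971. Pmel, Rab38 and Gpnmb, genes of melanosome structure and transport, had H3K27ac in addition to H3K4me3. The Pmel gene model (128695888 to 128720238) spans all of Cdk2, and both Pmel peaks lay at its lower-coordinate end. Whether these peaks belong to Pmel was not tested. Of 20 genes of undifferentiated, invasive or neural crest states, 20 had H3K4me3, with a median width of 5.15 kb, 6 (30%) had H3K27ac (Zeb2, Snai1, Snai2, Cdh2, Sox9 and Fosl1) and 0 H3K4me1. At Snai1, Cdh2 and Fosl1 the strongest gene-end H3K27ac peak lay at the end away from the H3K4me3 domain. At Sox9 it lay at 112787536 to 112787723, near the gene end at 112787757, in a domain over the whole gene. The receptor Axl had a 7.69 kb H3K4me3 domain, Tead1 of the Hippo pathway one of 5.35 kb, Ngfr one of 2.93 kb and Egfr one of 1.86 kb, each without H3K27ac.

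The markers of other cell types are read against H3K4me3 at 57.4%, H3K27ac at 19.7% and H3K4me1 at 2.29% of all protein-coding genes. Of 15 keratinocyte markers 8 (53.3%) had H3K4me3, a share near that of all genes and of the melanocyte list, and 1, Krt10, had H3K27ac, and Krt5, Krt14 and Krt15 had none. Of 10 fibroblast markers 4 (40%) had H3K4me3 and 2 (20%) H3K27ac (Dcn and Postn), with Col3a1 and Pdgfra on domains of 5.28 kb and 6.14 kb and Col1a2 without a mark. Of 10 endothelial markers 2 (Kdr and Flt1) and of 14 immune markers 4 (Cd4, Cd79a, Spi1 and Cd68) had H3K4me3, with 0 H3K27ac in both, and Pecam1, Cdh5, Tek, Ptprc, Cd3e and Cd3g had none. H3K4me1 was at 0 genes of these 4 lists, which are too short for 2.29% to give more than a few genes. The same holds for every other list here with 0 H3K4me1 genes, so a 0 is not read as a lack of the mark.

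Of 24 H3K4 and H3K27 enzymes and partners, 22 (91.7%) had H3K4me3, 12 (50%) H3K27ac and 0 H3K4me1, beside 57.4%, 19.7% and 2.29% of all protein-coding genes. Kmt2a, Kmt2b and Kmt2c, relatives of Kmt2d, had H3K4me3 domains of 5.27, 4.001 and 4.39 kb, and Kmt2c also H3K27ac (125 bp). Of 22 IGF and insulin genes, 17 (77.3%) had H3K4me3, 7 (31.8%) H3K27ac and 0 H3K4me1, and the receptor Igf1r had a 4.84 kb domain, Igf2r one of 4.09 kb, the ligand Igf1 one of 2.72 kb and Igf2 none. Of 39 Hox genes, 15 (38.5%) had H3K4me3, with a median width of 0.814 kb beside 2.65 kb over all genes, and 0 had H3K27ac or H3K4me1. Hoxa3 and Hoxa4 had domains of 1.74 and 0.768 kb, and Hoxa2 none.

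**Figure D5:**
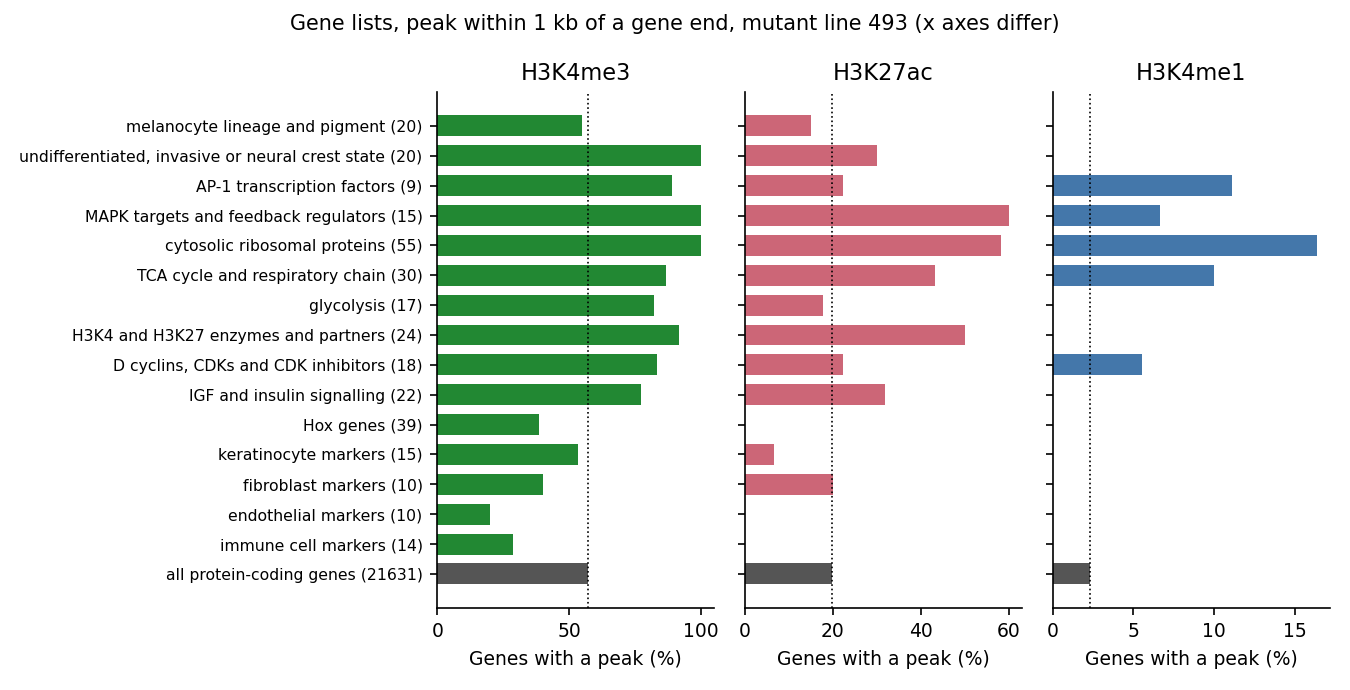
Percent of the genes of each list (y axis, number of genes in parentheses) with a peak of H3K4me3, H3K27ac or H3K4me1 within 1 kb of a gene end in mutant line 493 (x axes, different scales). Grey bars and dotted lines give all 21631 protein-coding genes; H3K4me1 was found in 5 of the 15 lists, at most in 16.4% of a list.

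Promoter letters differed between genes with and without H3K4me3. RefSeq entries matched 81.8% of the 21120 protein-coding genes outside chromosome 18. The median number of CpG in 300 bases was 21 for genes with all 3 marks, 22 for H3K4me3 with H3K27ac and 21 for H3K4me3 alone, against 6 for H3K27ac alone and 3 for genes with none. For H3K4me1 with H3K4me3 the comparison is void, since 78.5% of the genes had an entry. CCGGAA, the core of ETS factor sites, read on both strands, was found in 47.8% (39.9% to 55.8%) of 161 promoters with all 3 marks, 32.3% (30.6% to 33.9%) of those with H3K4me3 and H3K27ac, 25.7% of those with H3K4me3 alone, 14.1% of those with H3K27ac alone, 6.92% of those with none and 19.3% of all. TATAAA was found in 6.83%, 6.43%, 6.95%, 11.8%, 22.7% and 13.4% of the same groups. CCAAT was found in 42.2%, 37.3%, 39.8%, 38.8%, 40.3% and 39.6%. Of the promoters printed above, Arid1a and Phrf1 held CCGGAA, Ess2 and Tyr CCAAT, Tyr also TATAAA, and Tmem19 the E-box CACGTG, which 8.01% of all promoters held. TGANTCA, the AP-1 site, was in none of the 6 and in 7.09% of all promoters. A match is a run of letters and not a bound site, and CCGGAA itself holds a CpG.

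Against line 971, the mutant combinations with H3K4me3 were mostly at places with WT H3K4me3. This mark was present in line 971 at 99.8% of the mutant gene-end regions with all 3 marks, at 99.5% of those with H3K4me3 and H3K27ac and at 78.6% of regions of H3K4me3 alone elsewhere. WT H3K4me1 lay at 24.6% of gene-end regions with all 3 marks and at 46.4% of regions of H3K4me1 alone elsewhere. WT H3K27ac lay at 6.65% of the 11041 regions of H3K27ac alone elsewhere, against 68.1% of gene-end regions of H3K4me3 with H3K27ac. A WT peak anywhere in a region counted, and the median widths of these classes were 100 bp and 2877 bp. The part of region width in these shares was not tested. At the level of genes, 27 had all 3 marks in both lines, which is 13.8% of the 195 in line 493 and 6.59% of the 410 in line 971. For H3K4me3 with H3K27ac 2430 genes were shared, 63.4% of the mutant and 43.5% of the WT genes.

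Chromosomes 10 and 19 held more peaks per Mb of H3K4me1 and H3K27ac than the other autosomes. H3K4me1 numbered 4.43 peaks per Mb on chromosome 19 and 2.34 on chromosome 10, beside 0.890 to 2.21 on the others and 0.0469 on X. H3K27ac numbered 16.2 and 11.1, beside 5.55 to 9.25, whereas H3K4me3, at 10.6 and 7.41, lay within the range of the others (4.94 to 11.3). These chromosomes held 21.5% of gene-end regions with all 3 marks, and their copy number was not tested. Without them 47.9% of H3K4me1 peaks overlapped H3K4me3 and 149 genes had all 3 marks.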

How the data were processed

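Peaks were analysed as deposited, 1 list per library with no pooling. The submitters' processing notes name mm10, FastQC, MultiQC and MACS2 without versions. The aligner is not given in the sources used here, nor is any read total, so the depth behind each peak is unknown. By name and layout, the deposited H3K4me1 lists are MACS2 broad peaks, the H3K27ac lists narrow peaks and the H3K4me3 lists the older MACS layout with a score only. The deposited fold enrichment is a ratio to the control. The deposited −log10 p-value and −log10 q-value are the authors' own, and the deposited H3K4me3 score is, from that layout, a multiple of the −log10 p-value. Each served for ranks inside its own list. The deposited summit offset (another column) was not used. No column belonged to other samples (0 columns).

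Peaks on chromosomes 1 to 19 and X were kept (1 H3K4me1, 12 H3K4me3 and 3 H3K27ac peaks of line 493 were left out). Overlap meant at least 1 bp, and gene ends came from RefSeq models of GRCm38.p6 (34328 protein-coding and lncRNA genes, of which 21631 are protein-coding). Intervals used SciPy 1.17.1, with numpy 2.4.6 and pandas 2.3.3 in Python 3.11.15, and the overlap code was tested on simulated intervals. Named genes were, for each of the 7 combinations, the first 4 genes at gene ends and the first 3 different nearest genes within 100 kb elsewhere, ranked by peak strength in the order H3K4me1, H3K27ac, H3K4me3, together with Kmt2d and, from each list, members with all 3 marks and up to 4 more with H3K4me1 or else the first 4 of the list. Members, the 15 lists and the settings were chosen with earlier results of these data known. Genes named for H3K27ac in the pigment, undifferentiated, AP-1, glycolysis, cyclin, keratinocyte and fibroblast lists were chosen after their values were seen. So were Flt1, Cd79a, Spi1 and Cd68, and the pigment genes named as having none of the marks. Some genes that the rule selects are not reported here.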

Additional observations from a re-analysis of the deposited data

Results flagged for a closer look

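The H3K4me3 list of mutant line 493 held 5 peaks on chromosome Y, with scores from 56.4 to 137, where the WT line 971 had 0. It also held 7 peaks on unplaced contigs, where line 971 had 10. The H3K27ac lists held 2 peaks on chromosome Y in line 493 and 1 in line 971. These lie outside the chromosomes used in the comparisons.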

How the results depend on the processing

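Each value rests on 1 library per mark, so no library could be left out. No paired analysis was possible because no group has more than 1 library. Of 47 alternative values, 17 kept within their counting interval (counts of genes within 1.5 times) and 30 moved. With the more significant 50% of each list, the share of H3K4me1 on H3K4me3 was 40.5% and on H3K27ac 8.28%. H3K27ac on H3K4me3 was 31.5% and, elsewhere, on H3K4me1 2.20%. H3K4me3 with H3K27ac was 28.2% at gene ends and 30% elsewhere, so their order turned. All 3 marks were at 68 genes and H3K4me3 with H3K27ac at 2235. In lists of equal length these values were 25.7%, 4.19%, 21.1%, 6.30%, 19.3%, 23.1%, 48 and 603 in the same order, with the same turn at and away from gene ends. Cutting the lists removes peaks by construction. Within 1 kb the 6 shares were 57.4%, 31.4%, 38.5%, 7.20%, 36.6% and 27.3%. With 50% of the shorter peak shared, H3K4me1 was on H3K4me3 at 46.2% and on H3K27ac at 8.74%, and H3K27ac elsewhere on H3K4me1 at 2.20%. With gene ends of 2.5 kb, 32.9% of H3K4me3 domains there had H3K27ac and 798 genes had all 3 marks. With starts alone, 22.4% of H3K4me3 domains elsewhere had H3K27ac. Without chromosomes 10 and 19 the share of H3K4me1 on H3K4me3 was 47.9%. The mutant minus WT difference in that share was 31.8 points with WT lists cut to the mutant lengths, an alternative chosen after seeing the data. Causes were not tested beyond the cut lists. Peak lists without read depth cannot show that a mark was absent where no peak was called.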
